A study of Homo sapiens with 27 samples.

Results

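Classical cadherins are calcium-dependent adhesion receptors, and 10 of their genes were followed here across human pluripotent stem cells differentiating on laminin: CDH1, CDH2, CDH3, CDH4, CDH5, CDH6, CDH7, CDH8, CDH10 and CDH11. They were chosen by name, through the Ensembl identifiers of the deposited tables, and all 10 were found among 44852 genes. From day 2 to day 22, RNA of CDH1 and CDH3 fell and RNA of CDH2, CDH6, CDH7, CDH8, CDH10 and CDH11 rose on each of the 3 matrices. The falls did not pass the test under some alternative fits, whereas every rise but that of CDH8 passed under all of them. CDH4 and CDH5 did not pass the test on any matrix. No member passed it from day 22 to day 32.

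Cadherins bind like molecules on the neighbouring cell through their outer domains and hold the actin cytoskeleton through catenins on their tails. E-cadherin, the product of CDH1, is the cadherin of epithelia and of pluripotent cells, whereas N-cadherin, the product of CDH2, marks the neural plate and the neural retina. The exchange of E-cadherin for N-cadherin when ectoderm becomes neural tissue is known as cadherin switching, and the type II cadherins, such as CDH6 and CDH11, are used in finer patterns by parts of the brain, the retina and the mesenchyme.

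The cells were H1, a human embryonic stem cell line, and bulk RNA was sequenced from 27 libraries, 3 in each of 9 groups. The groups were 3 laminin matrices, named LN523, LN323 and LN521 after the leading isoform, at days 2, 22 and 32. Sample titles call these days 0, 20 and 30. Day 2 cells had received no differentiation medium, and all cells of days 22 and 32 had received induction medium with SB431542 and CKI-7, then photoreceptor differentiation medium with BDNF, CNTF, retinoic acid and DAPT. The methods of the study describe the LN523 and LN323 coatings as mixtures with LN521, the control being LN521 alone, whereas the sample labels state other mixtures, so that the exact coating could not be settled here. Nothing states that the replicates were separate cultures, and p-values therefore measure the spread between these libraries, which may be technical. A level in bulk RNA cannot tell fewer cells of a type from less RNA per cell.

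Total counts per library lay between 25620624 and 47340990, with a median of 39862487. All 8 pluripotent markers fell from day 2 to day 22 on each matrix and all 8 neural retina markers rose. The 8 photoreceptor progenitor markers were mixed. The mean of CRX was 4.69 to 15.2 TPM (a level corrected for gene length and scaled to the same total in every library) at day 32, and that of RCVRN was 0.245 to 3.25 TPM. At day 2 the CRX mean was 0.0968 to 0.128 TPM. On LN523 at day 32, means were 43.1 TPM for THRB, 41.0 for NEUROD1, 25.9 for RXRG, 13.7 for PRDM1 and 3.60 for NRL. OTX2 was at 71.6 TPM there, below its 126 TPM at day 2. One replicate stood apart: POU5F1, a pluripotency factor, was at 108 TPM in LN521 replicate 1 at day 22 and at 22.1 TPM at day 32, against at most 3.49 TPM in all other libraries of these days. Changes over days on LN521 were therefore also fitted without this replicate.

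In GENCODE 44 on GRCh38, CDH1 (chr16:68737292-68835537) and CDH3 (chr16:68636189-68727468) are neighbours on the plus strand of chromosome 16, which also holds CDH5, CDH8 and CDH11. CDH2 (chr18:27932879-28177946) and CDH7 (chr18:65750252-65890337) lie on chromosome 18, CDH6 (chr5:31193686-31329146) and CDH10 (chr5:24487100-24644978) on chromosome 5, and CDH4 (chr20:61252261-61940617) on chromosome 20. Exons of antisense genes cover 5.71% of the exonic bases of CDH1, 3.58% of CDH2 and 8.40% of CDH3. The libraries came from a stranded kit, but whether counting used strand is not given in the sources used here, so reads of these stretches may belong to either gene. A gene on the same strand shares 8.91% of the exonic bases of CDH6 and 1.91% of CDH11.

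Promoters of 5 members were held by the RefSeq promoter table (GRCh38.p14), and the 250 bases before the first start listed are shown because 4 of these genes rose from day 2 to day 22 while CDH4 did not pass the test. Capitals mark matches, on either strand, to an E-box (CAGGTG or CACCTG, the letters bound by SNAIL and ZEB factors), a GC box (GGGCGG or CCGCCC) or a TATA box (TATAAA or TTTATA). Their places are chr18:28177131-28177380, minus strand, for CDH2, chr18:65750002-65750251, plus strand, for CDH7, chr16:62036439-62036688, minus strand, for CDH8, chr5:24644979-24645228, minus strand, for CDH10, and chr20:61499171-61499420, plus strand, for CDH4. The windows of CDH2 and CDH8 lie inside the GENCODE gene, a short way downstream of its outermost start, and those of CDH7 and CDH10 end at the gene's edge. The CDH4 window lies far inside its gene, whose outermost start is at 61252261. Its letters therefore belong to an inner start of CDH4, and the outermost start is not shown.
CDH2: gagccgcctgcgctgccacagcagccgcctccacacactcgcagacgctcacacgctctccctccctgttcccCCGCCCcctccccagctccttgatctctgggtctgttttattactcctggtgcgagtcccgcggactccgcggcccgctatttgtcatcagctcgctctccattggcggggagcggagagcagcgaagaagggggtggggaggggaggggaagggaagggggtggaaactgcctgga
CDH7: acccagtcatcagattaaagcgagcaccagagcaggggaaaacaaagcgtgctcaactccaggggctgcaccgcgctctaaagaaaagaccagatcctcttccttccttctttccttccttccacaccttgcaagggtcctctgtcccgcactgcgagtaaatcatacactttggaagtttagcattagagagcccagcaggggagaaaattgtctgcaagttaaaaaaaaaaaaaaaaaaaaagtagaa
CDH8: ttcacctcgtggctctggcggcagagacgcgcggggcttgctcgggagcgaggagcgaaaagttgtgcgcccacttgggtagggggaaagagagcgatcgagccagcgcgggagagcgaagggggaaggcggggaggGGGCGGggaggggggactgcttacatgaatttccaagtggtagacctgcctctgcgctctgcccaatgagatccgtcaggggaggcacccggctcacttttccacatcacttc
CDH10: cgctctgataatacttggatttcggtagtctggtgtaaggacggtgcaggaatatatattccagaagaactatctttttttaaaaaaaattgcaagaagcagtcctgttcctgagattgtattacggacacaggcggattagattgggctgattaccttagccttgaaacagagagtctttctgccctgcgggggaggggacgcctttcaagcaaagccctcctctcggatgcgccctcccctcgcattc
CDH4: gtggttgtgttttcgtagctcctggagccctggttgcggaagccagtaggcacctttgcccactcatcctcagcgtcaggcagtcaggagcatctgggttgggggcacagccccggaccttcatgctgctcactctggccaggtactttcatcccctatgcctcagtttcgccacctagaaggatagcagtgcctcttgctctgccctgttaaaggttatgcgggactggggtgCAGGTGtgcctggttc
Only the CDH4 window held an E-box, and a GC box stood once in CDH2 and once in CDH8. Of 35116 promoters of the same length, 17.5% held an E-box, 42.6% a GC box and 10.7% a TATA box. The dinucleotide CpG occurred 17 times in CDH2 and 19 times in CDH8, against 6 in CDH7, 10 in CDH10 and 6 in CDH4. The median over all promoters was 11. No motif was common to the 4 genes that rose, which says only that these letters are not in all of these windows.

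E-cadherin led the cadherin RNA at day 2. The CDH1 level at day 2 was 288, 202 and 335 TPM in replicates 1, 2 and 3 on LN523, 224, 292 and 198 TPM on LN323, and 328, 307 and 345 TPM on LN521. At day 22 it was 75.5, 300 and 84.6 TPM on LN523, 78.3, 240 and 111 TPM on LN323, and 182, 194 and 75.3 TPM on LN521. At day 32 it was 7.70, 194 and 60.1 TPM on LN523, 43.1, 191 and 123 TPM on LN323, and 156, 188 and 89.1 TPM on LN521. Replicate 2 held the highest CDH1 level in all 6 groups of days 22 and 32, and on LN523 and LN323 its day 22 values overlapped the day 2 values.

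The fall of CDH1 from day 2 to day 22 was 2.87-fold on LN523 (log2 change -1.52 ± 0.42 SE, adjusted p = 0.00501), 2.35-fold on LN323 (-1.23 ± 0.42, adjusted p = 0.0237) and 2.31-fold on LN521 (-1.21 ± 0.42, adjusted p = 0.0322; edgeR quasi-likelihood test, n = 3 per group). These 3 calls were lost without the replicate block (adjusted p = 0.0903, 0.129 and 0.112), without replicate 3 (0.195, 0.15 and 0.572) and with limma on log2(TPM + 1) (0.309, 0.475 and 0.224). Those on LN323 and LN521 were also lost with DESeq2 (0.0729 and 0.066) and with a filter on low counts (0.104 and 0.118). Without LN521 replicate 1 the LN521 fall was larger, with a log2 change of -1.81 and an edgeR adjusted p of 0.000111. The estimate was a fall under each alternative run.

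P-cadherin, the product of CDH3, which epithelia such as the retinal pigment epithelium also use, followed a like course. Its level was 162 to 211 TPM over the 9 libraries of day 2, 52.5 to 211 TPM at day 22 and 40.7 to 175 TPM at day 32. Its fall from day 2 to day 22 was 2.52-fold on LN523 (log2 change -1.33 ± 0.32 SE), 2.55-fold on LN323 (-1.35 ± 0.32) and 2.02-fold on LN521 (-1.01 ± 0.31), with edgeR adjusted p of 0.000924, 0.000678 and 0.0141. With limma on log2(TPM + 1) all 3 calls were lost (adjusted p = 0.117, 0.137 and 0.131), and without replicate 3 those on LN523 and LN521 (0.0981 and 0.425). The LN521 call was also lost without the replicate block (0.0615) and with the filter on low counts (0.0606). At day 22, replicate 2 on LN523 reached 211 TPM, against 52.5 and 56.8 TPM in replicates 1 and 3.

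N-cadherin RNA rose on each matrix. The CDH2 level at day 2 was 54.2, 40.9 and 68.5 TPM on LN523, 44.8, 64.8 and 44.97 TPM on LN323, and 62.1, 85.0 and 51.6 TPM on LN521. At day 22 it was 414, 290 and 474 TPM on LN523, 494, 331 and 419 TPM on LN323, and 346, 319 and 461 TPM on LN521. At day 32 it was 521, 258 and 570 TPM on LN523, 542, 319 and 445 TPM on LN323, and 214, 276 and 465 TPM on LN521. No library of day 22 or 32 overlapped one of day 2, and replicate 2 had the lowest CDH2 level in 5 of those 6 groups. How large a share of all genes kept the days apart was not counted.

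The rise of CDH2 from day 2 to day 22 was 5.80-fold on LN523 (log2 change 2.54 ± 0.25 SE), 6.21-fold on LN323 (2.63 ± 0.25) and 5.41-fold on LN521 (2.44 ± 0.25), with edgeR adjusted p of 6.4e-12, 2.11e-12 and 2.42e-11. It passed the test under all 10 alternatives on each matrix.

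Among the type II cadherins, CDH6, which is expressed in kidney, neural crest and parts of the retina, reached the highest level. The CDH6 level at day 2 was 11.4, 1.79 and 6.78 TPM on LN523, 0.9752, 3.55 and 0.859 TPM on LN323, and 4.28, 6.03 and 8.39 TPM on LN521. At day 22 it was 278, 165 and 428 TPM on LN523, 253, 256 and 258 TPM on LN323, and 70.8, 179 and 172 TPM on LN521. At day 32 it was 396, 150 and 502 TPM on LN523, 358, 116 and 340 TPM on LN323, and 137, 177 and 189 TPM on LN521. All later libraries stood above all libraries of day 2, and the share of all genes that separated in this way was not counted.

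The edgeR log2 change of CDH6 from day 2 to day 22 was 5.11 ± 0.48 SE on LN523, 6.75 ± 0.52 on LN323 and 4.49 ± 0.47 on LN521, with adjusted p of 1.66e-12, 2.1e-15 and 4e-11.

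CDH11, the cadherin of mesenchyme and of bone-forming cells, rose from a low level as well. Its level at day 2 lay between 2.32 and 5.49 TPM over the 9 libraries. At day 22 it was 125, 76.3 and 134 TPM on LN523, 73.3, 130 and 95.7 TPM on LN323, and 35.03, 44.3 and 69.5 TPM on LN521. At day 32 it was 132, 116 and 144 TPM on LN523, 130, 161 and 147 TPM on LN323, and 70.3, 51.9 and 79.1 TPM on LN521. The 3 LN521 libraries were below all 6 others at both days.

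The edgeR log2 change of CDH11 from day 2 to day 22 was 4.45 ± 0.26 SE on LN523, 4.65 ± 0.26 on LN323 and 3.27 ± 0.25 on LN521, with adjusted p of 8.44e-20, 2.38e-20 and 1.11e-15. CDH6, CDH7, CDH10 and CDH11 passed the test under all 10 alternatives on each matrix.

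CDH7, CDH8 and CDH10, type II cadherins of the nervous system, rose to lower levels. CDH7 went from 0.847 to 1.86 TPM at day 2 to 12.6 to 45.9 TPM at day 22, with edgeR log2 changes of 3.78 ± 0.38 SE on LN523, 4.79 ± 0.40 on LN323 and 4.23 ± 0.39 on LN521. CDH8 went from 0.869 to 3.33 TPM at day 2 to 5.77 to 9.29 TPM at day 22, with changes of 1.20 ± 0.36, 2.15 ± 0.37 and 1.36 ± 0.36. The CDH8 call on LN523 was lost without replicate 2, with an adjusted p of 0.0582.

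CDH10 was close to absent at day 2. Its 3 libraries of a group summed to 10 counts on LN523, 4 on LN323 and 10 on LN521, and 5 of the 9 libraries held 0 counts. At day 22 the sums were 922, 864 and 1148 counts, and the level was 6.17 to 13.2 TPM over the 9 libraries. The rise passed the test on each matrix, with edgeR adjusted p of 1.12e-10, 2.94e-12 and 5.09e-12, but the size of a fitted fold change depends on so few counts and is given as no bound.

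R-cadherin and VE-cadherin did not pass the test. The level of CDH4, R-cadherin, first described in retina, was 10.4 to 20.4 TPM at day 2, 6.38 to 21.6 TPM at day 22 and 3.96 to 24.0 TPM at day 32, and the days overlapped. From day 2 to day 22 its log2 change was -0.41 on LN523 (95% interval -1.14 to 0.33), -0.72 on LN323 (-1.46 to 0.02) and 0.20 on LN521 (-0.53 to 0.93). The LN323 change passed the test without replicate 2 (log2 change -1.19, adjusted p = 0.000767) and in the fit of the 9 LN323 libraries alone (-0.77, 0.0224).

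The level of CDH5, the cadherin of endothelium, was at most 2.18 TPM in any library, and the highest values of days 22 and 32 were in LN523 replicate 2 at day 22 and LN521 replicate 1 and LN323 replicate 2 at day 32. From day 2 to day 22 its log2 change was 1.59 ± 1.00 (SE) on LN523, -0.41 ± 0.99 on LN323 and 0.33 ± 1.03 on LN521, and the last turned to -1.71 without LN521 replicate 1. All 27 of its counts were even. Of 8 endothelial markers none rose from day 2 to day 22, and 3, 5 and 3 fell on LN523, LN323 and LN521. At day 22 the group means were 0.133 to 0.171 TPM for PECAM1 and 0.461 to 0.501 TPM for VWF. Those of KDR and TEK were higher, at 3.29 to 5.48 and 4.48 to 6.16 TPM. At day 2 they had been 90.1 to 149 TPM for KDR and 39.5 to 40.3 TPM for TEK. At day 32 the PECAM1 means were 1.22 ± 0.67 TPM on LN523, 1.14 ± 1.09 TPM on LN323 and 1.71 ± 1.97 TPM on LN521 (SD, n = 3). Its log2 differences from day 22 were 2.97, 3.03 and 3.52, with edgeR adjusted p of 0.245, 0.666 and 0.0998. For CLDN5, a tight junction gene of endothelium, they were 2.86, 3.31 and -0.23 (edgeR adjusted p = 0.28, 0.392 and 1). Thus 0 of the 8 markers passed from day 22 to day 32 on any matrix, though PECAM1 on all 3 and CLDN5 on LN523 and LN323 had higher means at day 32.

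In all, 8 of 10 members passed the edgeR test from day 2 to day 22 on each matrix, and they were the same 8 genes. Of the 44852 genes tested, 11.5% were higher and 10.2% lower at day 22 on LN523, 11.8% and 10.9% on LN323, and 10.8% and 8.09% on LN521, against 6 of 10 members higher and 2 of 10 lower. The median log2 change of the members was 2.06, 2.39 and 1.90 on LN523, LN323 and LN521, beside 0.02, 0.02 and -0.02 over all genes. The number of members past the threshold lay between 6 and 9 over the alternatives.

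From day 22 to day 32, 0 of 10 members passed the edgeR test on any matrix, when 0.381%, 0.0424% and 0.268% of all genes did on LN523, LN323 and LN521. At an unadjusted p under 0.05 stood CDH1 on LN523 (log2 change -0.86 ± 0.41 SE), CDH4 on LN521 (-1.25 ± 0.37) and CDH11 on LN323 (0.53 ± 0.22) and LN521 (0.45 ± 0.22). Without replicate 2, the CDH1 fall on LN523 passed the test, with a log2 change of -1.33 and an adjusted p of 9.54e-06. In the fit of the 9 LN521 libraries alone, CDH4 passed it (-1.14, adjusted p = 0.021).

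**Figure D1:**
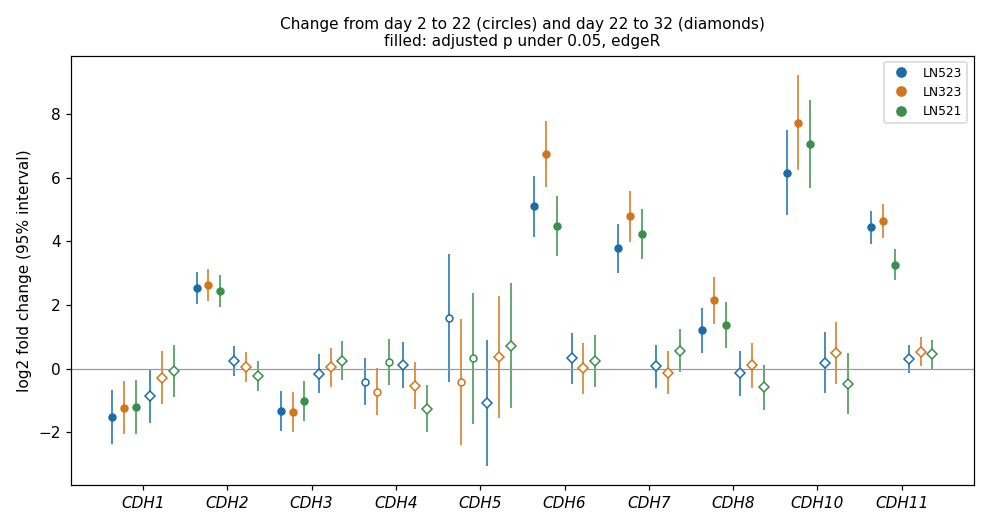
Log2 fold change by edgeR with its 95% interval for each cadherin and matrix, from day 2 to day 22 (circles) and from day 22 to day 32 (diamonds), filled where the adjusted p was under 0.05. The 24 filled points, 8 on each matrix, are all circles, and the diamonds lie about 0.

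The make-up of the cadherin RNA turned over. At day 2, CDH1 and CDH3 held 51.0% ± 3.3 and 33.8% ± 3.8 (SD, n = 3) of the summed TPM of the 10 cadherins on LN523, 48.0% ± 3.4 and 36.9% ± 3.5 on LN323, and 52.8% ± 1.8 and 31.4% ± 1.7 on LN521. CDH2 held 10.1% ± 0.8, 10.4% ± 0.9 and 10.8% ± 3.1. At day 22, CDH2 held the largest mean share on each matrix, with 35.6% ± 8.4 on LN523, 39.2% ± 10.4 on LN323 and 42.8% ± 6.8 on LN521.

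CDH6 held the next largest mean share on LN523 (26.1% ± 10.3) and LN323 (23.9% ± 2.1) at day 22, and CDH1 did on LN521 (17.5% ± 8.2, with CDH6 at 15.8% ± 6.2). On LN521 the levels of CDH1 and CDH6 overlapped between libraries, and so did those of CDH2 and CDH6 on LN523. The summed level of the 10 cadherins went from 535 ± 99 to 1105 ± 118 TPM on LN523, from 493 ± 66 to 1075 ± 98 TPM on LN323 and from 618 ± 16 to 875 ± 58 TPM on LN521.

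The switch was summarised as the log2 ratio of the CDH2 to the CDH1 level. It was -2.74 to -1.85 over the 9 libraries of day 2, -0.05 to 2.66 at day 22 and 0.41 to 6.08 at day 32. CDH1 was higher than CDH2 in all 9 libraries of day 2, and CDH2 was higher in all later libraries except LN523 replicate 2 at day 22. The mean rose by 3.87 from day 2 to day 22 (exact permutation test, two-sided, day labels exchanged within matrix, p = 0.00025, the smallest that the 8000 arrangements can give). From day 22 to day 32 the difference of 0.58 was not larger than the spread between libraries (exact permutation test, p = 0.459). Both tests treat the libraries as independent, although same-numbered LN523 and LN323 libraries deviated together at days 22 and 32.

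Between matrices the ratio did not pass a test, in a design whose smallest p is 0.1 with 3 libraries against 3. At day 32 the mean log2 ratio was 3.25 ± 2.83 on LN523, 2.08 ± 1.47 on LN323 and 1.13 ± 1.09 on LN521 (SD, n = 3). The exact permutation p-values of the 3 pairs were 0.7 for LN523 against LN323, 0.4 for LN523 against LN521 and 0.5 for LN323 against LN521. The highest value, 6.08, was that of LN523 replicate 1, where CDH1 was at 7.70 TPM. Without replicate 1, the difference of LN523 from LN521 went from 2.12 to 0.36, that of LN523 from LN323 from 1.17 to 0.53, and that of LN323 from LN521 from 0.95 to -0.17. Without replicate 2 the first of these was 3.25 and the second 1.91, and without replicate 3 the last was 1.69. LN523 thus kept the highest mean whichever replicate was left out. The size of the differences, and the order of LN323 and LN521, depended on single replicates.

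The levels were also compared between matrices at each day. At day 2, 1 of 10 members passed the edgeR F test over the 3 matrices, when 2.22% of all genes did. It was CDH6 (adjusted p = 1.67e-08), lower on LN323 than on LN523 by 1.92 ± 0.29 (SE) on the log2 scale and than on LN521 by 1.64 ± 0.27. The call was lost without LN323 replicate 1 (adjusted p = 0.128), with all 27 libraries in the fit (0.208), with the filter on low counts (0.556), with limma (0.63) and with DESeq2 (0.657). Without LN323 replicate 2 and without LN523 replicate 2, CDH8 passed as well (0.000241 and 0.00885).

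At day 22, 2 of 10 members passed, when 0.774% of all genes did, and both were lower on LN521. CDH11 (adjusted p = 3.71e-06) was 2.31-fold higher on LN523 than on LN521 and 2.10-fold higher on LN323 than on LN521, and CDH6 (adjusted p = 0.000489) 2.06-fold and 1.92-fold. CDH11 was the single member whose LN521 libraries all lay below the 6 others, as did 0.79% of all genes at day 22 and 1.35% at day 32. At day 32, 1 of 10 members, CDH11, passed (adjusted p = 0.0135), when 0.109% of all genes did, and it was 1.99-fold higher on LN523 and 2.18-fold higher on LN323 than on LN521.

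These calls depended on the model. All 3 stood without LN521 replicate 1 of the same day. None of the 3 stood without the replicate block (adjusted p = 0.441 for CDH11 and 1 for CDH6 at day 22, 0.123 for CDH11 at day 32), with limma (0.976, 0.976 and 0.944) or with the filter on low counts (1, 1 and 0.955). With DESeq2 those of CDH11 stood at both days and that of CDH6 did not (0.3). The CDH6 call at day 22 was lost without LN323 replicate 1, 2 or 3 (0.17, 0.263 and 0.344) and without LN523 replicate 3 (0.343). The CDH11 call at day 32 was lost without LN323 replicate 2 (0.159), LN521 replicate 2 (0.157), LN523 replicate 2 (0.0579) or LN523 replicate 3 (0.0873).

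Leaving out a library could also add members. Without LN521 replicate 1, 6 of 10 members passed at day 32, among them CDH1 (adjusted p = 9.76e-16) and CDH7 (0.00103). Calls rose over the whole table in that fit, with 2703 genes of all passing against 43 in the main fit. At day 22, 703 genes of all passed without LN523 replicate 2, against 299 in the main fit. CDH6 passed at day 32 also without LN323 replicate 1 (0.0349) or LN521 replicate 2 (0.0154). At day 22, CDH7 passed without LN521 replicate 3 (9.36e-05) or LN523 replicate 2 (4.89e-08), CDH3 without LN521 replicate 2 (0.0222) and CDH5 without LN521 replicate 1 (0.0425).

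Whether the course over days differed between matrices was tested as an interaction. By edgeR, 0 of 10 members passed, when 0.0602% of all genes did, with CDH6, CDH8 and CDH11 at an unadjusted p under 0.05. CDH11 came nearest (adjusted p = 0.0831) and passed with DESeq2 (0.0326), without replicate 1 (0.00484), without replicate 2 (0.007) and without LN521 replicate 1 (0.0104). Without replicate 2, 6 members passed, in a fit where 1391 genes of all passed against 27 in the main fit. Without replicate 1, CDH6 passed beside CDH11.

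Some genes of mesenchyme also passed the test between matrices. Of 11 neural crest and mesenchyme markers in the tables, 5 passed the F test over matrices at day 22 and 4 at day 32. Of all genes, 0.774% and 0.109% did. With the filter on low counts, 0 genes of all passed at either day, so these calls depended on the model too. Their summed level at day 22 was 846 to 1178 TPM on LN521, 1118 to 3182 TPM on LN523 and 1693 to 2277 TPM on LN323, and at day 32 it was 1145 to 2015, 1430 to 5601 and 2145 to 9107 TPM. The LN323 libraries stood above those of LN521 at both days, and the LN523 libraries overlapped them. The part of these markers in the CDH11 difference was not tested.

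On LN523, the genes whose profiles over all libraries were closest to CDH1 were spread over the replicates much as CDH1 was. EPCAM, an epithelial adhesion molecule, was at 53.7, 183 and 64.6 TPM in replicates 1, 2 and 3 on LN523 at day 22, and CLDN7, a tight junction protein, at 30.02, 102 and 31.2 TPM. At day 32 on LN523, EPCAM was at 8.08, 118 and 35.9 TPM, and both it and CDH1 were lowest in replicate 1. On LN521 at day 32, CLDN7 was highest in replicate 1, at 94.7 TPM, whereas CDH1 and EPCAM were highest in replicate 2. The mesenchyme gene COL3A1 was also highest in replicate 2 on LN523, at 2030 TPM at day 22 against 247 and 516 TPM. The replicate number equals the sequencing lane in the labels, so lane and replicate cannot be told apart, and the part of either in the CDH1 level was not tested.

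At days 22 and 32, CDH3 was higher and CDH2 mostly lower in the libraries where CDH1 was high. At day 32 the lowest CDH1 and CDH3 levels were both in LN523 replicate 1 (7.70 and 40.7 TPM), followed for both by LN323 replicate 1 (43.1 and 48.0 TPM), and these libraries had CDH2 levels of 521 and 542 TPM. The highest CDH1 level of day 32, in LN523 replicate 2 (194 TPM), stood beside 173 TPM of CDH3 and 258 TPM of CDH2. LN521 replicate 1 had the lowest CDH2 level, 214 TPM, with CDH1 at 156 TPM. Libraries of the same replicate number deviated together on LN523 and LN323, so these values are given as a description with no test, and were chosen after they were seen.

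**Figure D2:**
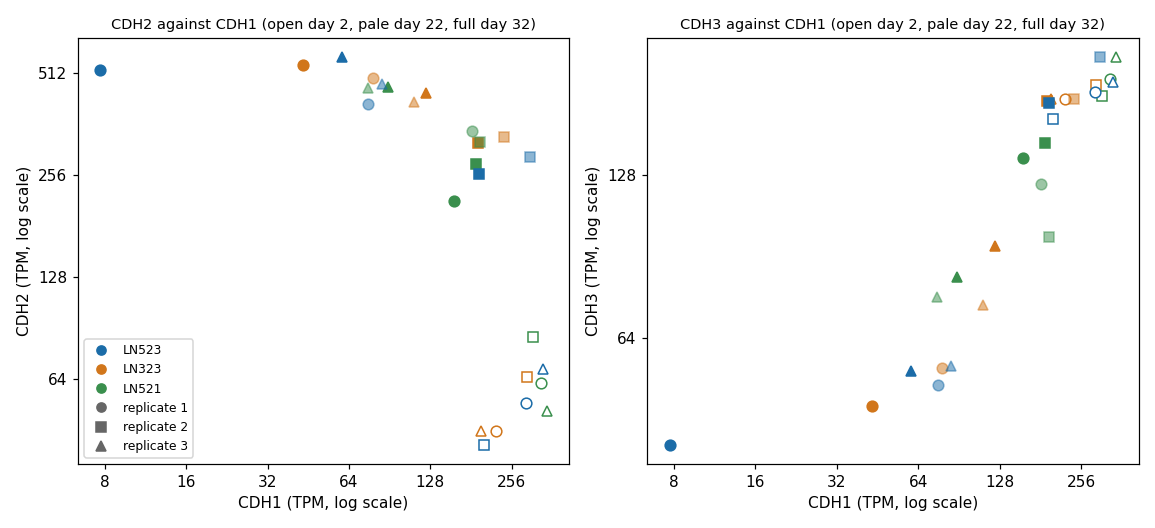
Level of CDH2 (left) and CDH3 (right) against CDH1, in TPM on log2 axes, one point per library (open at day 2, pale at day 22, full at day 32). At day 32 the libraries with the lowest CDH1 have the lowest CDH3 and a high CDH2, and day 2 libraries stand apart with high CDH1 and low CDH2.

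Other genes of the junction were counted from lists of 4 to 11 genes. Of 10 further classical and related cadherins, 3 rose and 2 fell on LN523 from day 2 to day 22, 4 and 1 on LN323, and 4 and 2 on LN521, with median log2 changes of -0.75, 0.04 and -0.07. CDH20, a type II cadherin of the nervous system, rose from 0.380 ± 0.085 to 136 ± 39 TPM (SD, n = 3) on LN523, beside 112 ± 31 TPM for CDH11. CDH13, a cadherin held to the membrane without a tail, rose from 2.06 ± 0.82 to 15.4 ± 6.3 TPM on LN523.

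Of 11 catenins and tail partners, 3 rose and 2 fell on LN523, 4 and 2 on LN323, and 4 and 2 on LN521. CTNNA2, the alpha catenin of neurons, rose from 13.5 ± 5.6 to 207 ± 130 TPM on LN523 (edgeR log2 change 3.60 ± 0.38 SE) and CTNND2, the neural delta catenin, from 14.0 ± 1.9 to 47.4 ± 5.3 TPM. JUP, plakoglobin, rose (0.68 ± 0.19) and AFDN, afadin, which links nectins to actin, fell (-0.72 ± 0.18). Of 4 nectins, 1 rose on each matrix, and 1 fell on LN323 and none on LN523 or LN521. NECTIN4 was the one that rose, with edgeR log2 changes of 5.83, 4.38 and 5.37 on LN523, LN323 and LN521, going from 0.275 ± 0.271 to 26.0 ± 22.7 TPM on LN523. NECTIN1 fell on LN323 (log2 change -0.86, edgeR adjusted p = 0.00279).

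Among 6 repressors of E-cadherin, 4 rose on each matrix and none fell, with median log2 changes of 5.53, 5.86 and 5.82 on LN523, LN323 and LN521. On LN523 they were ZEB1 (0.139 ± 0.123 to 33.4 ± 7.8 TPM), ZEB2 (0.058 ± 0.035 to 11.4 ± 3.6 TPM), TWIST1 (0.161 ± 0.082 to 23.3 ± 28.3 TPM) and SNAI2 (0.694 ± 0.013 to 26.1 ± 15.6 TPM). On LN523 at day 22, TWIST1 was at 55.9 TPM in replicate 2, where CDH1 was also highest, against 5.32 and 8.78 TPM. SNAI2 was also highest there, whereas ZEB1 was lowest, at 24.4 TPM against 38.5 and 37.3 TPM. On LN323 at day 22, replicate 2 again had the highest TWIST1 and the lowest ZEB1 level. On LN521 at day 22, TWIST1 was at 4.32 TPM in replicate 2, where CDH1 was highest, against 32.3 and 3.21 TPM. At day 32 on LN523, ZEB1 was highest in replicate 2, at 62.3 TPM. Their relation to CDH1 was not tested.

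Of 7 epithelial regulators, 3 fell on each matrix, and 1 rose on LN523 and LN323 and 2 on LN521. The splicing regulator ESRP1 fell from 161 ± 6 to 28.1 ± 28.3 TPM on LN523, ESRP2 from 35.6 ± 3.8 to 21.7 ± 19.3 TPM and the transcription factor OVOL2 from 17.1 ± 3.1 to 5.22 ± 6.44 TPM. GRHL3, a factor of the surface ectoderm, rose from 2.78 ± 0.83 to 21.5 ± 24.4 TPM. Of 11 desmosomal cadherins and plaque genes, 6, 6 and 5 rose and 1 fell on LN523, LN323 and LN521, the desmocollin DSC3 going from 1.87 ± 0.62 to 43.0 ± 23.0 TPM on LN523. Of 5 genes of proteases that cut cadherins or of their subunits, 2, 3 and 3 rose, the subunit gene NCSTN being among them on LN323 and LN521 only. FURIN, which removes the cadherin propeptide, was at 32.6 ± 1.5 and 90.2 ± 10.4 TPM.

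The genes whose log2 CPM profile over the 27 libraries was closest to a member, by root mean square difference after centring and among 17124 genes, were listed as a description. They were CLDN7 (0.33), EPCAM (0.36) and TMEM30B (0.38) for CDH1, whose own profile had an SD of 1.24. For CDH3 they were ARHGAP27 (0.25), ESRP2 (0.25) and EPS8L1 (0.30), and for CDH2 TCTN1 (0.25), MAGI3 (0.25) and CD99L2 (0.26). For CDH6 they were FAM13C (0.56), SAMD11 (0.63) and KAZALD1 (0.72), and for CDH11 MSRB3 (0.40), FBN1 (0.40), which codes for fibrillin of the extracellular matrix, and LRRC4C (0.46).

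CDH4 was closest to PROM1 (0.44), CDH7 to PLK2 (0.45), CDH8 to FBXL20 (0.32) and CDH10 to MIR99AHG (0.63). CDH5, the lowest member, had no close neighbour, its nearest gene being TSHZ3 at 0.98.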

How the data were processed

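Bulk RNA-seq of 27 H1 libraries was used, 3 for each of 3 matrices and 3 days, grouped by the sample titles. Total RNA libraries with removal of ribosomal RNA were read as 150 bp pairs, aligned to GRCh38 (Ensembl 79) with STAR 2.5.2b and counted with featureCounts 1.5.1, as the study's methods and the submitters' processing notes state, the latter also naming cutadapt. The authors removed rRNA and mitochondrial genes, rounded the counts per gene and deposited them without normalization, for genes with a total above 1. TPM values per gene were deposited by the authors as well and were used for levels. Even numbers made up 68.8% of counts above 0, and whether read pairs or single reads were counted is not given in the sources used here.

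Counts were tested with edgeR 4.0.16 (R 4.3.3) (glmQLFit, TMM factors), with lane as a replicate block as in the study's model. Changes over days and the interaction used all 27 libraries and matrices the 9 libraries of a day, p-values being adjusted by Benjamini-Hochberg over the whole table, with a threshold of 0.05. The biological coefficient of variation was 45.1% over 27 libraries. Replicate numbers equal sequencing lanes. Deviations from group means of same-numbered LN523 and LN323 libraries had mean correlations of 0.49 at day 22 and 0.57 at day 32, but -0.24 at day 2, and other pairs of matrices -0.06 to 0.15. Ratios used log2(TPM + 0.01) and exact permutation tests. The script was tested on simulated counts. Python 3.11.15 and matplotlib 3.10.9 drew the figures.

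Alternatives were no block, RLE normalization, the filterByExpr filter, DESeq2 1.42.0, limma 3.58.1 on log2(TPM + 1), other libraries in the fit, pseudocounts, CPM, and leaving out each replicate. A fit without LN521 replicate 1 was added after the data were seen. Members and gene lists were chosen with earlier results of these data known. All members and all 8 photoreceptor progenitor markers are named. From each other list, apart from the endothelial markers, at most 4 genes are named. They are those with the largest log2 change past the threshold and at least 1 CPM in a group. Levels of single libraries named for POU5F1, EPCAM, CLDN7, COL3A1, TWIST1, SNAI2 and ZEB1 were chosen after their values were seen. So were the means of the photoreceptor progenitor markers, PECAM1, VWF, KDR and TEK. Tables of sample annotation were not used.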

Additional observations from a re-analysis of the deposited data

How the results depend on the processing

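The rise of the CDH2 to CDH1 ratio from day 2 to day 22 passed under all 5 alternatives, with log2 differences of 3.44 to 4.56 when a replicate was left out. The number of members past the threshold from day 2 to day 22 lay between 6 and 9 and the calls lost were those of CDH1, CDH3 and CDH8, while CDH4 gained one on LN323.

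Counts of members between matrices depended on the processing. Against 1, 2 and 1 members at days 2, 22 and 32, the filterByExpr filter gave 0, 0 and 0 and limma 0, 0 and 0. DESeq2 gave 0 at day 2 and 1 at day 22, and all 27 libraries in the fit likewise 0 and 1. Without the replicate block the counts were 1, 0 and 0. With the filter, 0 genes of all passed at any of these days (1960, 663 and 1110 at an unadjusted p under 0.05). The interaction gave 0 members, 1 with DESeq2, 0 without the block and 1 without LN521 replicate 1. From day 22 to day 32 on LN521 the fit of its 9 libraries gave 1 member, against 0. From day 2 to day 22 the fit without the replicate block gave 7, 7 and 6 members on LN523, LN323 and LN521, and 0 on each matrix from day 22 to day 32.

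Leaving out each library or replicate gave 0 to 2 members at day 2, 1 to 3 at day 22 and 0 to 6 at day 32, 0 to 6 for the interaction, and 0 to 1 from day 22 to day 32 on LN523. The fits with 6 members called many more genes of all: 2703 at day 32 against 43, and 1391 for the interaction against 27. The ratio between matrices could not pass a test in any setting, and its differences at day 32 without 1 replicate lay between 0.53 and 1.91 for LN523 against LN323, 0.36 and 3.25 for LN523 against LN521, and -0.17 and 1.69 for LN323 against LN521. The causes were not tested. No called member changed direction. Counts of 10 or fewer limit CDH10 at day 2, and CDH5 throughout stays near the floor of counting.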
